A study of Mus musculus with 9 samples.

Results

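Solute carriers are membrane proteins that move sugars, amino acids, ions, nucleosides, vitamins and other small molecules across the cell surface and the membranes of organelles. They are named by family number, and members of a family usually share a kind of substrate. Facilitative carriers let a substrate run down its gradient, exchangers swap one substrate for another, and cotransporters draw on the gradient of sodium, protons or chloride that ion pumps maintain. The genes described here are those on the array whose single symbol starts with Slc, a family number, the letter a and a member number, without Slc2a1. They number 141 of 8251 genes with a single symbol, and 174 probe sets represent them. Each gene is represented by its probe set with the highest mean intensity over all arrays.

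The samples were total RNA of mouse embryonic orofacial tissue, which forms the face and palate, at gestation days (GD) 12, 13 and 14, with 3 one-colour arrays per day. The labels give no strain, sex or treatment, and do not say whether the arrays of a day came from separate embryos, litters or pools, so each p-value measures only the spread between these samples. Values are linear intensities of a probe set, which cannot be compared between genes. In bulk tissue, fewer cells of a type and less RNA per cell cannot be told apart.

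Array medians lay between 47.15 and 56.95, and the actin controls' 3'/5' signal ratio, which is higher in degraded or incompletely copied RNA, lay between 1.25 and 2.44, with the third array lowest on each day. In arrays 1 and 2 it was lowest on GD12, at 1.54 and 1.76, and highest on GD14, at 2.44 and 2.29, while in array 3 it was 1.42, 1.25 and 1.37 over the days. With this ratio as a covariate in the limma fit, 0 members passed in any comparison of days. Of 12 orofacial mesenchyme markers, 11 were on the array and 0 of them had a mean under 10.4, the intensity at which dim probe sets were left out. Their summed intensity was 4507 to 5088 on GD12, 4086 to 4132 on GD13 and 3674 to 3806 on GD14. Summed markers of 6 other kinds of cell did not overlap between GD12 and GD14. Those of neurons, melanocytes, endothelium, liver and yolk sac, and lens and eye did overlap. Of all tested probe sets, 22.3% were separated between these days, and a sum follows its brightest genes. Osteoblast markers (5 of 9 on the array) summed to 1008 to 1383 on GD12 and 8055 to 9771 on GD14, and osteoclast and macrophage markers (8 of 8) to 262 to 355 and 895 to 985. Skeletal muscle markers (10 of 10) summed to 1231 to 1555 and 2672 to 4126, and red cell markers (10 of 12) to 22720 to 28877 and 14923 to 18705. The red cell markers went both ways: of 9 tested, 1 passed as higher and 3 as lower on GD14. Glial markers (4 of 6) summed to 633 to 1031 and 247 to 501, and epithelial markers (8 of 8) to 498 to 539 and 705 to 755. Of 4 tested glial markers 0 passed, and of 5 tested epithelial markers 1 passed, as higher. The epithelial markers Krt5, Krt14 and Krt15 were under the filter. The part of these cells in the values below was not tested.

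In the fit without a block for replicate number, no solute carrier taken in by the rule on symbols passed between any 2 days. With that block, described below, 3 members passed from GD12 to GD14, against 6.65% of all tested probe sets. Of the 141 genes, 113 had a mean log2 intensity above the filter and were tested with limma among all 9326 tested probe sets, and a gene passed at an adjusted p under 0.05. Between GD12 and GD14, 0 of 113 passed, where 4.3% of all tested probe sets did. From GD12 to GD13, 0 of 113 passed against 0.643% of all, and from GD13 to GD14, 0 of 113 against 0.0429%. The F-test over the 3 days called 0 of 113 against 2.58% of all. The second daily step minus the first called 0 of 113, and 0% of all probe sets. At an unadjusted p under 0.05 the F-test was met by 10 members and 14.2% of all probe sets, and the difference between the steps by 8 members and 4.86%. The smallest adjusted p of a member was 0.0740 between GD12 and GD14, 0.201 for the first step and 0.404 for the second.

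At an unadjusted p under 0.05, 11 members stood out between GD12 and GD14, where 17.5% of all tested probe sets met that threshold. Of these, 9 were higher on GD14 (10.2% of all probe sets) and 2 lower (7.25%). For the first step it was 7 members, with 11% of all probe sets, and for the second step 11 members, with 7.18%. The 3 values of GD14 did not overlap those of GD12 in 21 members, where 22.3% of all tested probe sets were so separated. They were 17 higher members (12.1% of all probe sets) and 4 lower ones (10.3%). In the first step 13 members were separated (18.5% of all), and in the second step 16 (13%). As a share of the tested members, separation stood at 18.6%, and an unadjusted p under 0.05 at 9.73%. Both shares lay under those of all probe sets for GD14 against GD12 and, at 11.5% and 6.19%, for the first step. In the second step both lay above them, at 14.2% and 9.73%. From GD12 to GD14 separated higher members were 15% of those tested, above the share of all probe sets, and separated lower ones 3.54%, under it. With the replicate number of the arrays as a block, which the residuals of the arrays bear out, 3 members passed between GD12 and GD14 against 6.65% of all probe sets. These were Slc38a10 (adjusted p = 0.0484), Slc44a2 (0.0497) and Slc1a2 (0.0320), from limma with the block.

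Other settings from GD12 to GD14 called fewer. With the filter at the median intensity 2 of 66 members passed against 7.88% of all probe sets, Slc38a10 and Slc50a1. With trend and robust variances Slc38a10 alone passed, against 5.79%, and without GD14 replicate 3 Slc44a2 alone, against 4.22%. In the F-test Slc11a1 passed without GD13 replicate 1 (adjusted p = 0.0466). Over all alternatives the limma adjusted p ranged from 0.035 to 0.241 for Slc38a10, 0.0453 to 0.258 for Slc50a1, 0.0225 to 0.372 for Slc44a2 and 0.032 to 0.72 for Slc1a2.

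**Figure D1:**
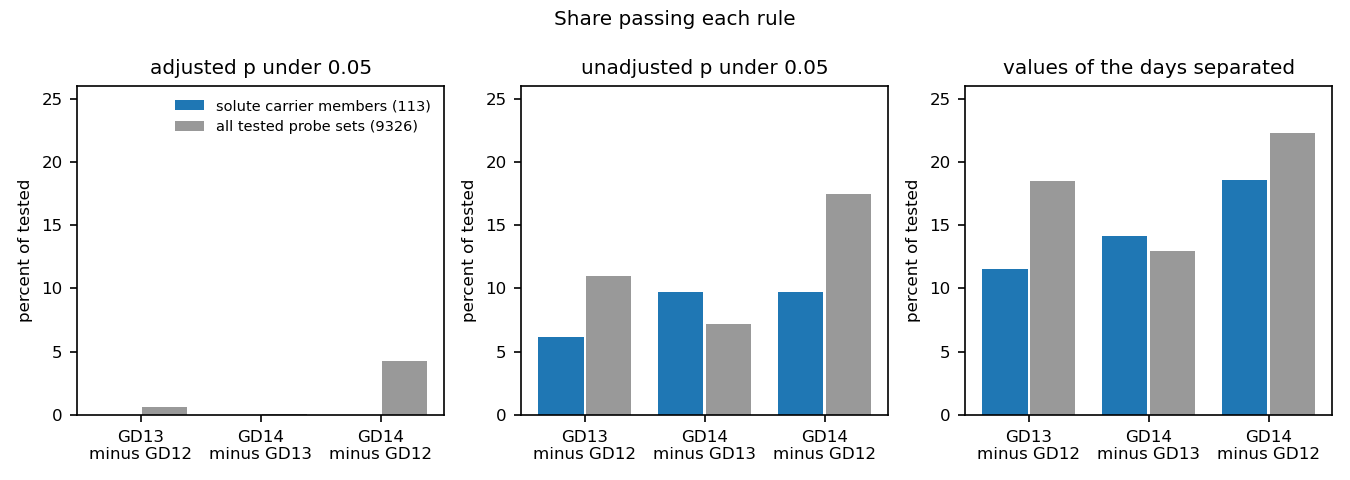
Percent of the 113 tested solute carrier members (blue) and of all 9326 tested probe sets (grey) that met each rule, for the 3 comparisons of days. No member passed at an adjusted p under 0.05 in the fit without the replicate block, which is the one shown. For GD14 against GD12 the share at an unadjusted p under 0.05 was 9.73% in members and 17.5% in all probe sets.

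Each interval of a difference is for a single tested member, from the fit without the block, and does not bound the members jointly. From GD12 to GD14 the 95% limma interval lay within 2-fold in either direction for 75 of 113 members, where 63.5% of all tested probe sets met this. It was 75 of 113 in the first step against 68.1%, and 79 of 113 in the second against 71.5%. The median size of the log2 change, whatever its direction, was 0.23 over the members and 0.25 over all 6867 tested genes. Changes of at least 2-fold between GD12 and GD14 were seen in 3 members against 5.63% of all probe sets, and none of the 3 passed in the limma test. They were Slc15a2, the fatty acid family member Slc27a3 and the monocarboxylate carrier Slc16a8, the latter pair picked out after their values were seen. The log2 change of Slc27a3 was 1.24 (95% interval -0.35 to 2.83), and that of Slc16a8 was -1.35 (95% interval -3.02 to 0.32). In the first step 4 members reached 2-fold against 2.99% of all probe sets (Slc6a2, Slc6a18, Slc4a1 and Slc25a53), and in the second step 2 against 2.16% (Slc7a7 and Slc11a1). The log2 change was above 0 in 70 of 113 members and in 3393 of 6867 genes, and its median was 0.15 over the members against -0.01 over the genes. Over all 141 members, dim ones included, the median was 0.11. These medians describe the array values and were not tested as a group.

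By substrate class, the medians from GD12 to GD14 lay between -0.22 and 0.23. Glucose and hexose carriers had a median log2 change of -0.22 over 5 tested members, and -0.03 over all 7. Amino acid carriers had 0.20 over 20 tested members and 0.15 over all 24. Ion carriers had 0.19 over 29 tested members and 0.14 over all 35. Nucleoside and nucleotide-sugar carriers had 0.15 over 4 tested members and 0.27 over all 5. Mitochondrial carriers had 0.05 over 19 tested members and 0.05 over all 20. Carriers of organic solutes such as choline, peptides and monocarboxylates had 0.23 over 26 tested members, and carriers of amines and osmolytes -0.02 over 7. The differences between classes were not tested. The spread of a class median between arrays of a day (SD over the GD12 and GD14 arrays) was 0.31 for glucose, 0.26 for nucleotide, 0.089 for amino acid and ion, and 0.060 for mitochondrial carriers. The glucose, nucleotide and mitochondrial medians were thus smaller in size than this spread, as was that of amines and osmolytes, with a spread of 0.22.

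**Figure D2:**
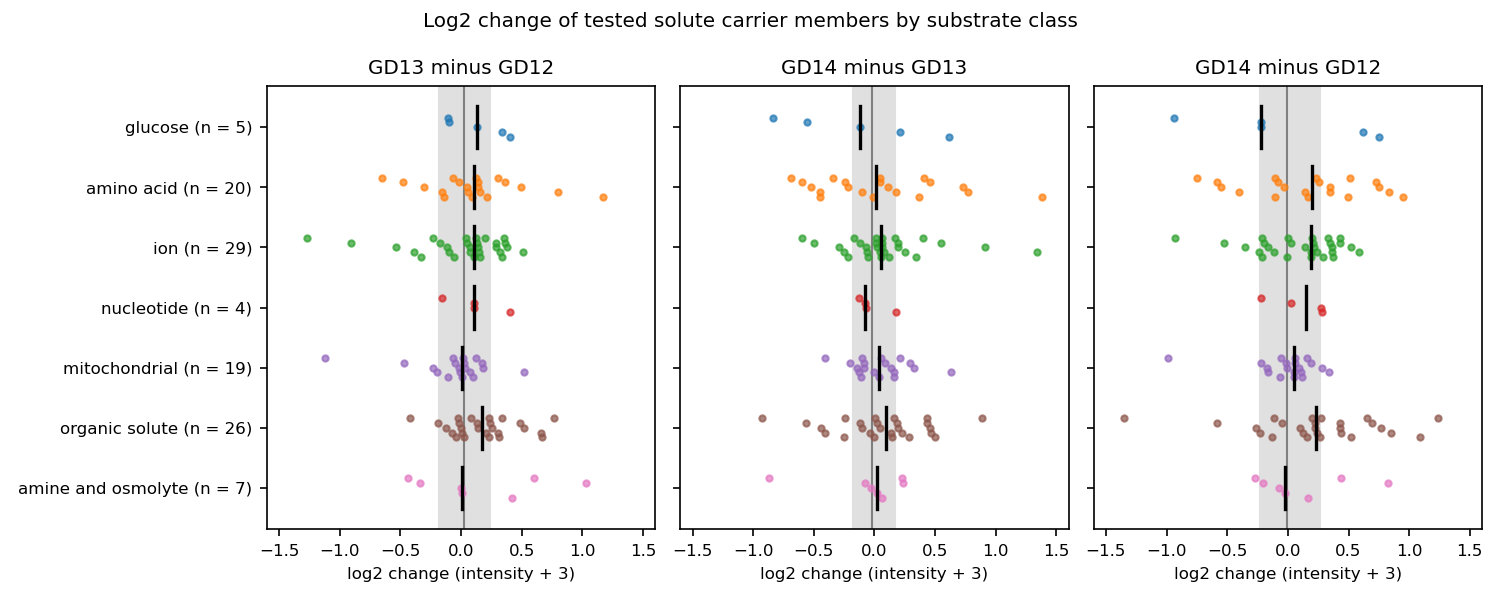
Log2 change of each tested member (points) by substrate class for the 3 comparisons of days, on the log2(intensity + 3) scale. Black bars are class medians, the grey line and band are the median and quartiles of all 6867 tested genes, and the middle part of the mitochondrial points from GD12 to GD14 spans -0.06 to 0.11 between its quartiles.

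Glucose and hexose carriers supply the fuel of glycolysis and the sugars of glycoproteins. The clearest of them was Slc50a1, a sugar efflux carrier, whose intensity was 168, 119.5 and 140.4 on the GD12 arrays, 199, 188 and 177 on GD13 and 234, 234 and 189 on GD14. Every GD13 and GD14 array read above every GD12 array. Its log2 change from GD12 to GD14 was 0.62 (95% interval 0.22 to 1.01, limma adjusted p = 0.0919). With the filter moved to the median intensity, which tested fewer probe sets, its adjusted p was 0.0453 in limma.

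Slc2a4, the insulin-responsive glucose carrier of muscle and fat, read 58.6, 71.9 and 52.9 on the GD12 arrays, 64.8, 59.7 and 45.5 on GD13 and 41.4, 11.6 and 53 on GD14. The second GD14 array stood far below the others, and the days overlapped. Its log2 change from GD12 to GD14 was -0.94 (95% interval -1.94 to 0.06, limma adjusted p = 0.313). Slc2a3, a high-affinity glucose carrier known from neurons, read 31.1, 39.1 and 42.2 on the GD12 arrays, 46.7, 53.7 and 43.4 on GD13 and 24.3, 44.4 and 28.7 on GD14. Its lowest GD13 array lay above all GD12 arrays, while 1 GD14 array lay above that lowest GD13 value, and its log2 change in the second step was -0.56 (95% interval -1.07 to -0.05, limma adjusted p = 0.664). A dimmer probe set of Slc2a3 had a log2 change of -0.50 from GD12 to GD14, against -0.22 on this one. The fructose carrier Slc2a5 read 23.5, 5.9 and 23.7 on the GD12 arrays, 23.1, 8.4 and 24.9 on GD13 and 22.7, 21.3 and 45.1 on GD14, with overlap between all days and a log2 change from GD12 to GD14 of 0.75 (95% interval -0.41 to 1.92). The intracellular hexose carrier Slc2a8 had a log2 change of -0.22 (95% interval -0.74 to 0.30). Slc2a2, the glucose carrier of liver and pancreas, and Slc5a1, the intestinal sodium-coupled glucose carrier, were too dim to be tested, with mean intensities of 7.37 and 3.52.

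Amino acid carriers feed protein synthesis and growth signalling. Slc38a10, of the sodium-coupled neutral amino acid family, read 284, 262 and 262 on the GD12 arrays, 286, 267 and 284 on GD13 and 416, 359 and 382 on GD14. The GD12 and GD13 arrays lay close together and every GD14 array stood above them. Its log2 change was 0.51 (95% interval 0.21 to 0.82, limma adjusted p = 0.074) from GD12 to GD14 and 0.46 (95% interval 0.15 to 0.77, limma adjusted p = 0.404) in the second step, against 0.05 in the first.

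Slc7a5 and Slc3a2 encode the light and heavy subunits of an exchanger of large neutral amino acids. Slc7a5 read 183, 228 and 239.8 on the GD12 arrays, 209, 232 and 249.6 on GD13 and 265, 336 and 321 on GD14. All 3 GD14 arrays lay above all earlier ones, with a log2 change from GD12 to GD14 of 0.50 (95% interval 0.11 to 0.88, limma adjusted p = 0.167). Slc3a2 read 438, 419 and 524 on the GD12 arrays, 480.5, 472 and 474 on GD13 and 552, 526 and 539 on GD14. Its GD14 arrays also lay above all earlier ones, by a narrow margin, with a log2 change of 0.23 (95% interval -0.09 to 0.55, limma adjusted p = 0.451). Slc7a6, a light subunit that pairs with the same heavy chain, had the opposite order, at 55.2, 46.9 and 54.7 on the GD12 arrays, 50.8, 39.7 and 49.6 on GD13 and 44.6, 37.6 and 34.5 on GD14. Its GD12 values all exceeded its GD14 values, with a log2 change of -0.40 (95% interval -0.78 to -0.03, limma adjusted p = 0.249).

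For 4 further amino acid carriers the interval of the change from GD12 to GD14 included 0. Slc38a2, the neutral amino acid carrier that cells induce on amino acid shortage, read 269, 242 and 295 on the GD12 arrays, 239, 229 and 261 on GD13 and 304, 298 and 199 on GD14, with overlapping days and a log2 change of -0.03 (95% interval -0.47 to 0.41) from GD12 to GD14. Slc1a5, a glutamine carrier, had 0.35 (95% interval -0.12 to 0.81), and Slc1a4, a carrier of serine and alanine, 0.17 (95% interval -0.28 to 0.61). Slc38a5, a glutamine carrier of the same family as Slc38a2, had -0.59 (95% interval -1.22 to 0.05). Of the 20 tested members, 12 had a positive and 8 a negative change from GD12 to GD14. Their intervals lay within 2-fold in 11. Slc7a1, Slc7a8, Slc7a11 and Slc1a1 were under the filter, with mean intensities of 2.49, 10.2, 7.64 and 4.19.

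Slc1a2, the main glutamate carrier of astrocytes, was dim and was named after its values were seen, because the block changed its call. It read 3.3, 9.7 and 18.2 on the GD12 arrays, 4.7, 11 and 21.7 on GD13 and 11.3, 25.5 and 26.9 on GD14. On each day array 1 was lowest and array 3 highest, and within each number GD14 was the highest day. Its log2 change from GD12 to GD14 was 0.95 (95% interval -0.28 to 2.17, limma adjusted p = 0.42) without the block. It was 0.49 without GD12 replicate 1 and 1.36 without GD12 replicate 3. Summed glial markers were lower on GD14 than on GD12, and their part was not tested. It was the same size with the block, where the adjusted p was 0.0320. Its GD12 mean of 10.4 lay at the filter intensity, and the log2 change was 1.12 with 1 in place of 3 added before the log and 0.61 with 11.

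Ion carriers set cell volume, pH and the supply of trace metals. Slc12a7, a potassium-chloride cotransporter, was the clearest member of the class, at 179, 172 and 194 on the GD12 arrays, 119, 126 and 128 on GD13 and 120.2, 146 and 112 on GD14. All 6 arrays of GD13 and GD14 lay below all GD12 arrays. Its log2 change was -0.54 (95% interval -0.88 to -0.20, limma adjusted p = 0.201) in the first step and -0.52 (95% interval -0.86 to -0.18, limma adjusted p = 0.0983) from GD12 to GD14, against 0.01 in the second step. The sodium-potassium-chloride cotransporter Slc12a2, which carries chloride into cells, read 709, 546 and 711 on the GD12 arrays, 847, 838 and 705 on GD13 and 1025, 859 and 643 on GD14, with overlap and a log2 change of 0.35 (95% interval -0.13 to 0.82). Slc12a4, another potassium-chloride cotransporter, read 124, 111 and 139 on the GD12 arrays, 134, 123 and 136 on GD13 and 174, 143 and 155 on GD14. Its GD14 values lay above all earlier ones, with a log2 change of 0.33 (95% interval -0.02 to 0.68), opposite in sign to Slc12a7.

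All 16 carriers of metal ions were tested, 12 of them carriers of zinc. From GD12 to GD14, 12 of the 16 had a positive and 4 a negative change, with a median of 0.22. Of all 6867 tested genes, 3393 had a positive change. The 13 tested ion carriers of other kinds had a median of -0.00, and the difference between the groups was not tested. Families 30 and 39 move zinc in opposite directions, out of and into the cytosol. Slc30a5, which loads zinc into the secretory pathway, read 71.1, 91.8 and 62.1 on the GD12 arrays, 108, 143 and 77.8 on GD13 and 114, 120 and 104 on GD14. Its GD14 values lay above its GD12 values, with a log2 change of 0.58 (95% interval 0.05 to 1.12, limma adjusted p = 0.244), and a second probe set had 1.02 (adjusted p = 0.0953 in limma). Slc39a7, which releases zinc from the endoplasmic reticulum and Golgi, read 706, 746 and 474 on the GD12 arrays, 916, 826 and 694 on GD13 and 887, 754 and 804 on GD14. Each GD14 value exceeded each GD12 value, with a log2 change of 0.37 (95% interval -0.10 to 0.84). Slc39a9 read 48, 61 and 70 on the GD12 arrays, 56.8, 44.1 and 63.1 on GD13 and 77.4, 74.4 and 91.1 on GD14, and its GD14 arrays lay above all others, with a log2 change of 0.55 (95% interval 0.10 to 1) in the second step. The 3 zinc carriers with a negative log2 change from GD12 to GD14 were Slc39a6 (-0.24), Slc39a8 (-0.19) and Slc39a4 (-0.01).

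Slc31a1, the high-affinity copper importer, read 321, 238 and 294 on the GD12 arrays, 328, 294 and 300.3 on GD13 and 537, 376 and 334 on GD14. The first GD14 array was far above the rest, and the GD14 values lay above all earlier ones. Its log2 change from GD12 to GD14 was 0.52 (95% interval 0.05 to 0.99, limma adjusted p = 0.231), while another probe set of the gene had -0.04, so the difference rests on 1 probe set. Slc11a2, an iron importer, had -0.11 (95% interval -0.56 to 0.33) on its brighter probe set and 0.20 on the other. Slc20a1, a phosphate importer, read 137, 162 and 123 on the GD12 arrays, 112, 127 and 118 on GD13 and 122, 142 and 101 on GD14, with overlapping days and a log2 change of -0.21 (95% interval -0.61 to 0.19). The summed osteoblast markers stood several times higher on GD14 than on GD12, and their part in the Slc20a1 values was not tested.

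Members known from blood cells were named for the step between days after their values were seen. Slc4a1, the anion exchanger of the red cell membrane, read 42.1, 22.2 and 65.6 on the GD12 arrays, 13.5, 35.6 and 5.8 on GD13 and 29.6, 24.7 and 38.3 on GD14. Arrays of a day differed widely, all days overlapped, and the log2 change was -1.27 (95% interval -2.47 to -0.07, limma adjusted p = 0.42) in the first step and -0.35 (95% interval -1.56 to 0.85) from GD12 to GD14. Slc11a1, a metal carrier of macrophages, read 19.1, 29.7 and 18.7 on the GD12 arrays, 23, 4.7 and 8.8 on GD13 and 31.1, 25.1 and 37.2 on GD14. Its GD14 arrays lay above all GD13 arrays, with a log2 change of 1.34 (95% interval 0.43 to 2.26, limma adjusted p = 0.417) in the second step. In the first step the log2 change of Slc11a1 was -0.91 (95% interval -1.82 to 0.003, limma adjusted p = 0.457). The summed macrophage and osteoclast markers were 262 to 355 on GD12, 636 to 813 on GD13 and 895 to 985 on GD14. They were thus higher in both steps, while Slc11a1 was lower in the first and higher in the second. The part of these cells in the Slc11a1 values was not tested.

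Nucleoside and nucleotide-sugar carriers had wide intervals, within 2-fold for 1 of 4 tested members from GD12 to GD14. Slc29a1, the equilibrative nucleoside carrier of the cell surface, read 63.1, 128 and 172 on the GD12 arrays, 116, 129 and 219 on GD13 and 121, 107 and 193 on GD14. Array 3 was the highest of each day, the days overlapped, and the log2 change from GD12 to GD14 was 0.27 (95% interval -0.63 to 1.18). Slc29a2, a related nucleoside carrier, had -0.22 (95% interval -1.34 to 0.89). Slc35a1, which brings the donor of sialic acid into the Golgi, read 121, 99 and 122 on the GD12 arrays, 144, 118 and 108 on GD13 and 137, 140.1 and 80.7 on GD14, with a log2 change of 0.02 (95% interval -0.51 to 0.56). The sign of the Slc35a1 change turned with the actin ratio as a covariate (-0.15), median scaling (-0.015) and quantile normalization (-0.0051), so it has no settled direction. Slc35a2, the Golgi carrier of UDP-galactose, had 0.28 (95% interval -0.70 to 1.27), and its sign turned too with the actin ratio as a covariate (-0.16). Slc35a4 was left out because its mean log2 value was under the filter, although its mean intensity was 11.

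Carriers of the mitochondrial family exchange metabolites across the inner membrane, apart from relatives such as the peroxisomal Slc25a17. Their median size of the log2 change, whatever its direction, was 0.11 from GD12 to GD14, against 0.25 over all tested genes, and this difference was not tested. Slc25a4, an ADP/ATP exchanger that prevails in muscle and heart, read 2182, 2027 and 2333 on the GD12 arrays, 2385, 2116 and 2121 on GD13 and 2253, 1987 and 2002 on GD14. The days overlapped, with a log2 change of -0.07 (95% interval -0.39 to 0.25). Summed skeletal muscle markers were higher on GD14, and their part in the Slc25a4 values was not tested. The pyrimidine nucleotide carrier Slc25a36 read 744, 657 and 695 on the GD12 arrays, 734, 741 and 617 on GD13 and 838, 801 and 499 on GD14, with a log2 change of -0.01 (95% interval -0.49 to 0.48) that is positive without the third arrays (0.23) and with quantile normalization (0.02). The citrate carrier Slc25a1 read 474, 452 and 398 on the GD12 arrays, 454, 417 and 485 on GD13 and 491, 433 and 485 on GD14 and had a log2 change of 0.09 (95% interval -0.24 to 0.42). For these 3 members the interval lay inside 2-fold.

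The mitochondrial members with the smallest p in this comparison did not pass either. Slc25a53 read 32.8, 50.8 and 38.1 on the GD12 arrays, 44.5, 12.1 and 7.7 on GD13 and 23.9, 11.6 and 23 on GD14. Its GD14 values lay below its GD12 values, the GD13 arrays were spread from 7.7 to 44.5, and the log2 change was -0.98 (95% interval -2.13 to 0.16, limma adjusted p = 0.365). The ornithine carrier Slc25a15 had 0.34 (95% interval -0.15 to 0.83), and Slc25a47 had -0.22 (95% interval -0.63 to 0.20), with GD14 values below all GD12 values. Of 19 tested members 16 had an interval within 2-fold, and 11 had a positive and 8 a negative change. Slc25a48 was under the filter, with a mean intensity of 3.26.

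**Figure D3:**
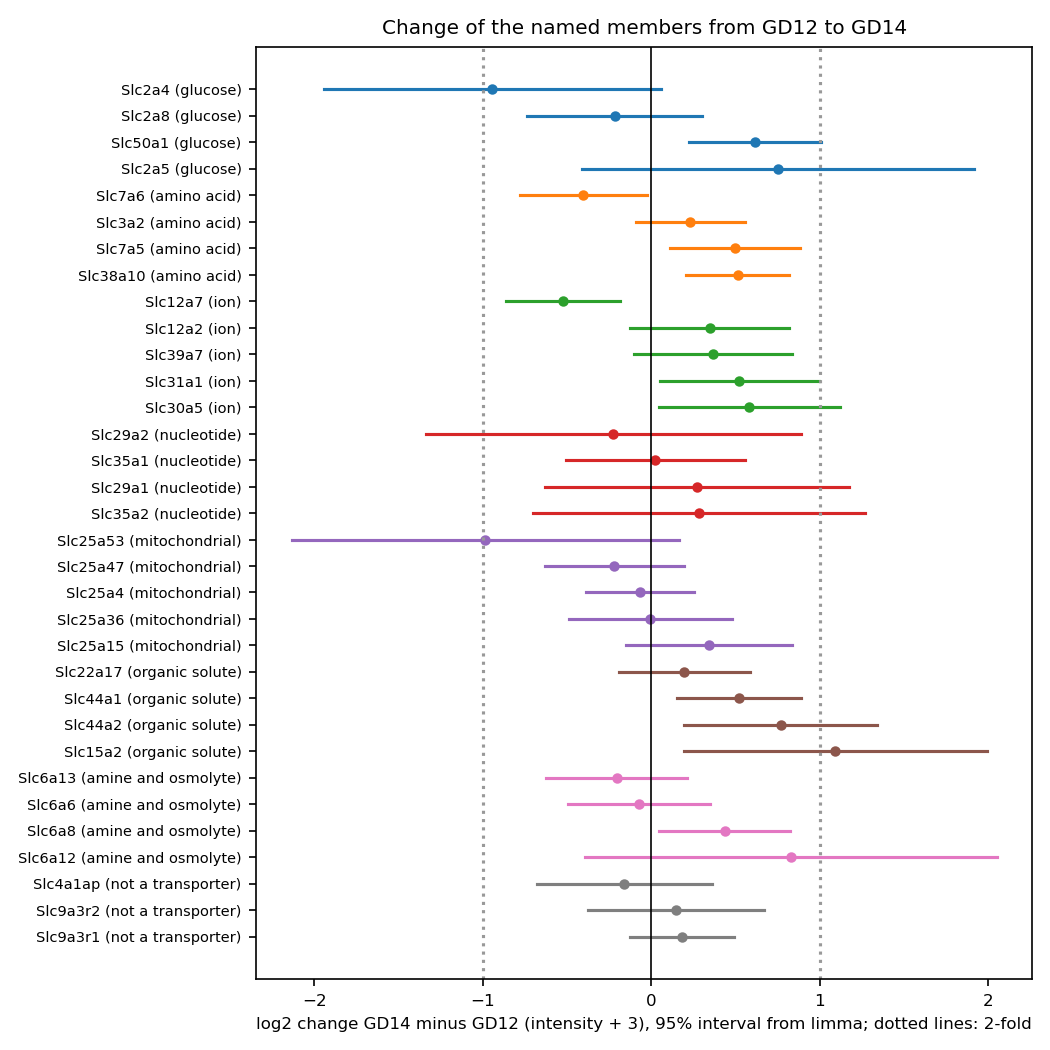
Log2 change from GD12 to GD14 (points) with the 95% limma interval (lines) of the named members, coloured by class, on the log2(intensity + 3) scale, with dotted lines at 2-fold. Slc25a4 has one of the narrower intervals, around -0.07, and Slc25a53 one of the wider, around -0.98.

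Choline carriers of family 44 supply the precursor of phosphatidylcholine. Slc44a1 read 222, 210.3 and 234 on the GD12 arrays, 194, 227 and 260.5 on GD13 and 335, 283 and 344 on GD14. All GD14 arrays lay above all earlier ones, with a log2 change of 0.52 (95% interval 0.15 to 0.89, limma adjusted p = 0.13) from GD12 to GD14 and 0.02 in the first step. Slc44a2 read 85.7, 80.5 and 64.8 on the GD12 arrays, 124, 104 and 98 on GD13 and 166, 158 and 87.8 on GD14. All GD13 and GD14 arrays exceeded the GD12 arrays, although the third GD14 array was lower than all 3 GD13 arrays. The log2 change from GD12 to GD14 was 0.77 (95% interval 0.19 to 1.34, limma adjusted p = 0.15). Without GD14 replicate 3 it was 1.05 and passed (limma adjusted p = 0.0225), and with the block the adjusted p was 0.0497. The remaining tested member of the family, Slc44a4, had a log2 change of -0.12 (95% interval -0.60 to 0.37) from GD12 to GD14.

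Slc15a2, a proton-coupled peptide carrier, read 25.3, 5.6 and 21.3 on the GD12 arrays, 20.9, 27.2 and 29 on GD13 and 38.4, 32.1 and 36.3 on GD14. The second GD12 array was far below the other GD12 arrays, and the GD14 values lay above all earlier ones. Its log2 change from GD12 to GD14 was 1.09 (95% interval 0.19 to 1.99, limma adjusted p = 0.191). Slc22a17, a receptor for lipocalin, read 389, 323 and 306 on the GD12 arrays, 406, 377 and 488 on GD13 and 387, 349.7 and 429 on GD14, with overlap and a log2 change of 0.20 (95% interval -0.19 to 0.58). Slc16a1, a carrier of lactate and pyruvate, was under the filter, with a mean intensity of 8, and Slc16a7, a relative, had a log2 change of 0.44 (95% interval -0.30 to 1.18). Of the 37 members of this mixed class, 11 were not tested.

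**Figure D4:**
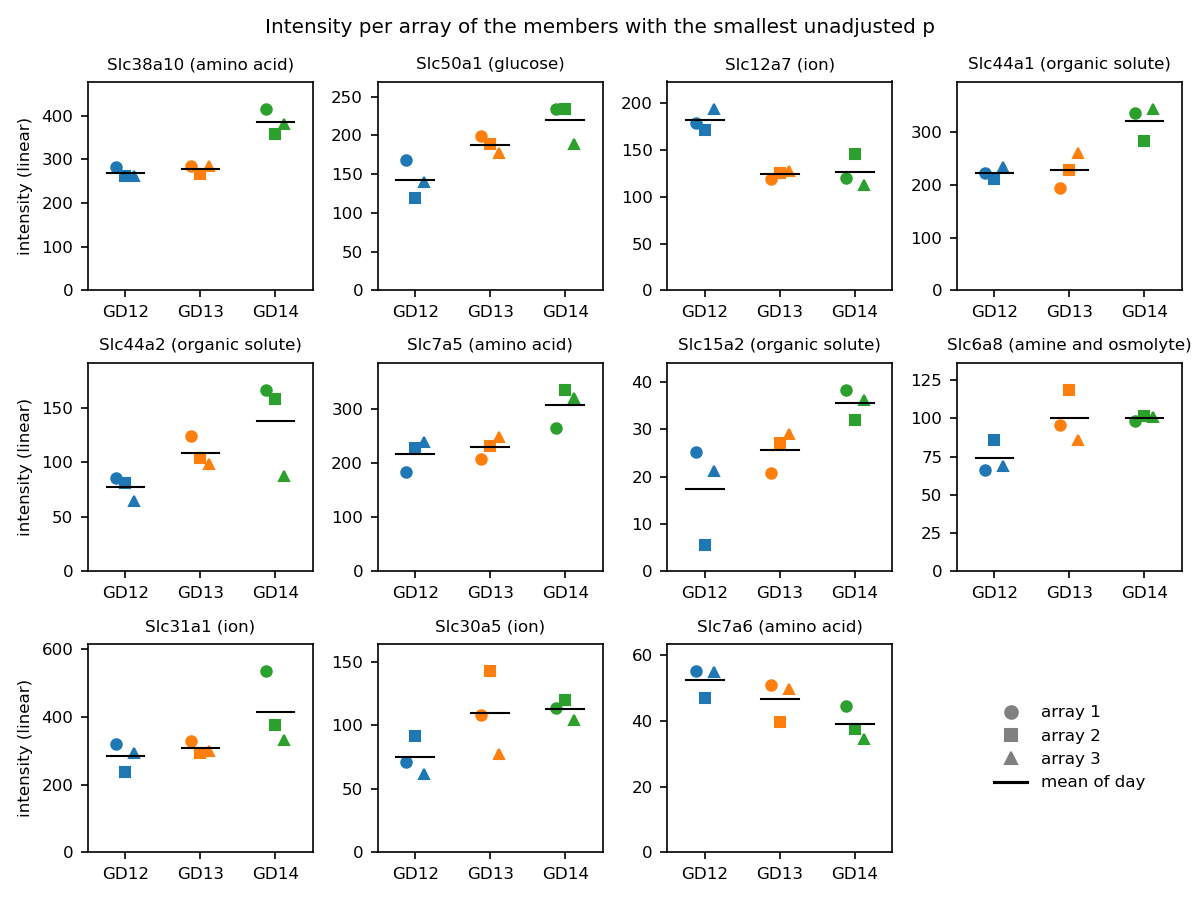
Linear intensity on each array (points, symbol by replicate number) and the mean of each day (bars) for the 11 members with an unadjusted p under 0.05 from GD12 to GD14, in order of p. In 9 members the GD14 mean is the higher one and in Slc12a7 and Slc7a6 the lower one. None of the 11 passed after adjustment in the fit without the replicate block, while Slc38a10 and Slc44a2 passed with it.

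Of the carriers of amines and osmolytes, the creatine importer Slc6a8 read 66.5, 85.9 and 69.1 on the GD12 arrays, 95.5, 119 and 85.6 on GD13 and 98, 102 and 101 on GD14. Its GD14 arrays were nearly equal and lay above all GD12 arrays, with a log2 change of 0.43 (95% interval 0.05 to 0.82, limma adjusted p = 0.228). The taurine importer Slc6a6 read 408, 426 and 365 on the GD12 arrays, 312, 421 and 485 on GD13 and 397, 396 and 347 on GD14, with a log2 change of -0.07 (95% interval -0.50 to 0.35), and a dimmer probe set had 0.17. Slc6a13, a carrier of GABA, read 70.9, 69.9 and 76.2 on the GD12 arrays, 51, 54.3 and 52.5 on GD13 and 48.6, 79.5 and 62.3 on GD14. Its GD13 values lay below all GD12 values, with a log2 change in the first step of -0.44 (95% interval -0.85 to -0.02, limma adjusted p = 0.421). The betaine carrier Slc6a12 was dim and its interval wide, at 0.83 (95% interval -0.39 to 2.05) from GD12 to GD14. The noradrenaline carrier Slc6a2 was named after its values were seen, at 13.7, 17.4 and 11.4 on the GD12 arrays, 35.6, 53 and 16.5 on GD13 and 12.8, 22.9 and 13.9 on GD14. Its GD13 mean was the highest day but the days overlapped, and the second probe set had -0.47 in the first step against 1.03 here.

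The rule on symbols also took in 3 genes that are not carriers. Slc9a3r1, a scaffold that tethers exchangers to the cytoskeleton, read 249.6, 208 and 219 on the GD12 arrays, 187, 184 and 188 on GD13 and 266, 245 and 257 on GD14. Its GD13 values lay below all others, with a log2 change of 0.45 (95% interval 0.14 to 0.76, limma adjusted p = 0.427) in the second step. Slc9a3r2, a related scaffold, had 0.15 (95% interval -0.38 to 0.67) from GD12 to GD14, and the adaptor Slc4a1ap had -0.16 (95% interval -0.68 to 0.36). Both of these signs turned without GD14 replicate 3, to -0.003 and 0.01.

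Arrays that share a replicate number also shared levels of some members. With day and replicate number in 1 limma fit, added after the data were seen, the number passed for 1 of 113 members (adjusted p = 0.0481), where 0.472% of all tested probe sets passed. That member was Slc23a3, of the ascorbate carrier family, at 27.5, 92.2 and 37.3 on the GD12 arrays, 16.5, 101 and 41.4 on GD13 and 20.4, 107 and 25.5 on GD14. Array 2 was the highest of each day by more than 2-fold, and the days overlapped. This rests on 1 probe set: the other one read 29.4, 38.2 and 38.7 on the GD12 arrays, 32.2, 61.9 and 50.5 on GD13 and 41.2, 71.9 and 59.1 on GD14, with array 2 below array 3 on GD12 and a log2 change of 0.63 from GD12 to GD14. At an unadjusted p under 0.05 the number term was met by 30 members against 22.4% of all probe sets. Of the variation of a member over the 9 arrays, a median of 25.5% lay between days and 34.7% between numbers. Over all tested genes these medians were 29.2% and 29.5%. What the numbers stand for is not given in the labels.

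**Figure D5:**
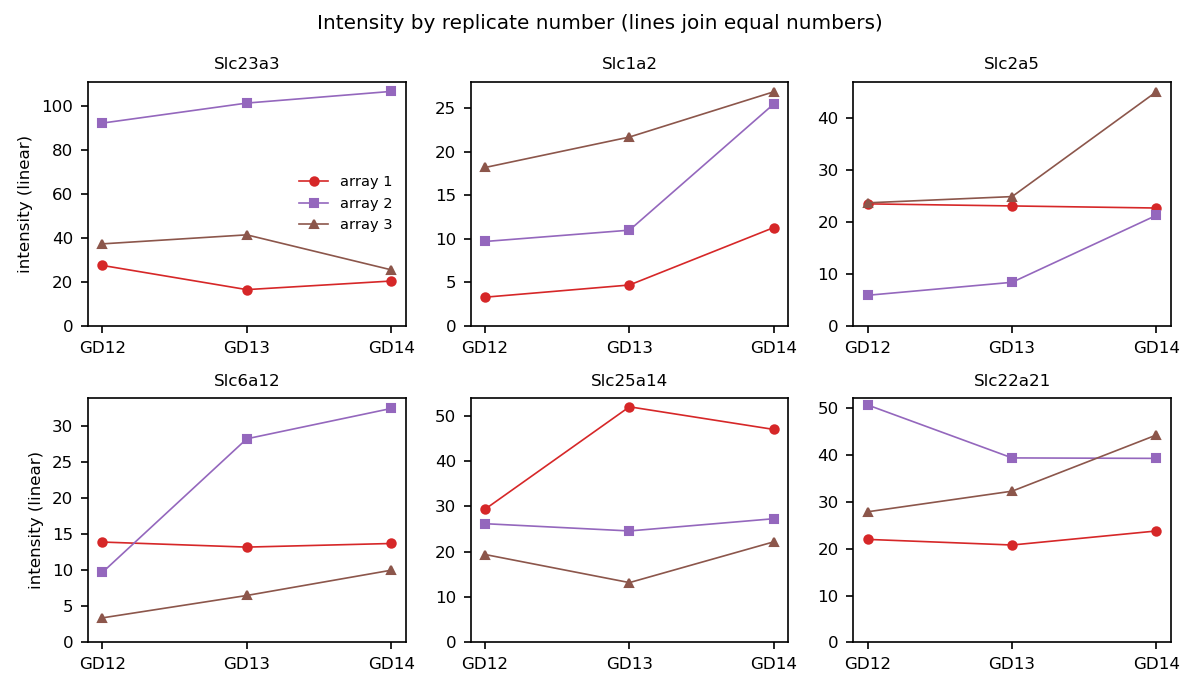
Linear intensity of the 6 members with the smallest p for the replicate number, with lines joining arrays of equal number over the days. For Slc23a3 array 2 reads 92.2, 101 and 107 on the 3 days, above arrays 1 and 3 throughout.

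Transport genes that the rule on symbols did not take in were described by 4 lists. Of 24 tested ATP-driven ion pump genes, which build the gradients that cotransporters use, 0 passed in any comparison of days, with a median log2 change of 0.18 from GD12 to GD14. At an unadjusted p under 0.05, 5 of them were higher and 1 lower on GD14, where 10.2% of all tested probe sets were higher and 7.25% lower. Of 21 tested ABC transporter genes 0 passed (median 0.02), with 4 higher and 1 lower at an unadjusted p under 0.05, to be read against the same shares. Of 5 aquaporin genes 1 passed from GD12 to GD14 and was higher, the water channel Aqp1. Of 2 tested organic anion carriers of the Slco family 1 passed, Slco5a1, which fell from 54.1 ± 3.86 to 25.4 ± 4.32 (SD, n = 3 each; limma adjusted p = 0.00968). Of all tested probe sets 3.24% passed as higher and 1.06% as lower between these days.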

How the data were processed

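The deposited values are probe set intensities on a linear scale, already brought to one scale by the authors: each array had a 2% trimmed mean of 150.1. The image software is not given in the sources used here. Of 12488 probe sets, 66 were controls, 10833 had 1 gene symbol in the array annotation, 396 several and 1193 none. Gene names were checked through the GRCm38.p6 gene table, where 10817 single-symbol probe sets matched and 0 symbols changed.

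Intensities were transformed to log2 after adding 3. Probe sets with a mean log2 value at or under the 25th percentile (intensity 10.4) were left out. The other 9326 were fitted with limma 3.58.1 in R 4.3.3 as 3 group means over 9 arrays (6 residual and 2.85 prior degrees of freedom), with Benjamini-Hochberg adjustment over all of them. Intervals are 95% and use the moderated standard error. The fit was tested on simulated data with independent arrays, which lack the correlation between arrays of equal replicate number. Python 3.11.15, pandas 2.3.3 and matplotlib 3.10.9 made summaries and plots.

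Residuals of arrays with the same replicate number correlated at 0.189 to 0.419 and those with different numbers at -0.287 to -0.0171. Every same-number pair was over 0.1, so the numbers were taken to pair the arrays. The fit without the block was kept as the reported one, so its p-values and intervals leave this pairing out. With the block 3 members passed from GD12 to GD14.

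Substrate classes follow family number and textbook substrate. Named genes were, per class, up to 3 tested members with the smallest p from GD12 to GD14 and the 2 brightest, and any that passed. Other members were named after their values were seen. Members and lists were chosen with earlier results of these data known. Marker lists of glia, neurons, melanocytes, endothelium, epithelium, liver and yolk sac, and lens and eye had 0 to 1 members passing from GD12 to GD14. Alternatives were 2 scalings, 2 added values, 2 filters, array weights, the replicate block, trended and robust variances, the actin ratio as a covariate, only the arrays compared, omission of single arrays or of the third arrays, and the mean of probe sets.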

Additional observations from a re-analysis of the deposited data

How the results depend on the processing

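The count of members that passed was 0 in each comparison and stayed at 0 for both daily steps and for the step difference under every alternative run for them. From GD12 to GD14 it was 3 with the replicate block (Slc38a10, Slc44a2 and Slc1a2), 2 with the filter at the median (Slc38a10 and Slc50a1, with 66 members tested) and 1 with trend and robust variances (Slc38a10). Leaving out single arrays gave 0 to 1 there (Slc44a2 without GD14 replicate 3) and 0 to 1 in the F-test (Slc11a1 without GD13 replicate 1, adjusted p = 0.0466). The blocked fit changed no other call of a member in the comparisons of days. The class medians from GD12 to GD14 ranged, without single arrays, from 0.11 to 0.36 for amino acid (lowest without GD12 replicate 2, highest without GD12 replicate 3), -0.30 to 0.01 for glucose, 0.11 to 0.19 for ion, 0.0025 to 0.18 for nucleotide and -0.0101 to 0.0724 for mitochondrial carriers. With the actin ratio as a covariate the nucleotide median was -0.16, and with the filter at the median the glucose median was 0.20, as fewer members were tested. The causes of the other moves were not tested. Median scaling moved the median of all genes from -0.01 to -0.04, and the median of the members was 0.09 to 0.19 over all alternatives. Of the 33 named members, 10 changed sign under at least 1 alternative, none of them with a call. The number of arrays limits the precision, and for dim members the added value sets the size of a change.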

Other observations

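Several probe sets represent 28 of the 141 solute carrier genes, and 14 of these had more than 1 tested probe set. From GD12 to GD14 the tested probe sets of a gene had log2 changes of the same sign in 9 genes and of opposite sign in 5, which were Slc11a2, Slc23a3, Slc31a1, Slc39a1 and Slc6a6. None of the 15 tested probe sets beyond the brightest passed in a comparison of days. For Slc25a5, an ADP/ATP exchanger of proliferating cells, the brightest probe set had a log2 change of 0.06 and the others had 0.43 and 0.78 (limma adjusted p = 0.941, 0.452 and 0.185). For Slc39a1, a zinc importer, the brighter one had 0.19 and the dimmer one -0.56.

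The 28 members that were not tested had mean intensities from 0.9 to 11.8, and the highest single value among them was 27. They included carriers that mark specialised cells, such as Slc32a1 and Slc18a3 of inhibitory and cholinergic synapses (means of 2.36 and 3.54), Slc12a1 of the kidney (7.09) and Slc10a1 of the liver (7.06). Of the tested members, 7 had a day mean under the filter intensity, namely Slc6a12, Slc1a2, Slc7a7, Slc12a3, Slc12a5, Slc4a4 and Slc16a8.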
